A study of Rattus norvegicus with 18 samples.

Results

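The tripartite motif (TRIM) genes are described here in cortical collecting ducts, the tubule segment of the kidney cortex that sets the final salt, acid and water content of urine. Members were the rows of the deposited table whose symbol is Trim followed by a digit, 55 of 32883 genes. Of these, 34 had a mean of at least 1 TPM, a level corrected for transcript length and scaled to the same total in each library, in at least 1 of the groups and are reported one by one. The ducts were microdissected from pathogen-free male Sprague-Dawley rats, kept 1 per cage, 3 h after an intraperitoneal dose of lipopolysaccharide (LPS), a bacterial cell wall component, or of normal saline (Vehicle). Each group held 3 numbered samples, and each sample 3 libraries, 18 in all. The sources used here give no age or dose, and the labels name no allele or transgene in either group.

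TRIM proteins share an N-terminal RING finger, B-box zinc fingers and a coiled coil. The RING makes most of them E3 ubiquitin ligases, which attach ubiquitin to other proteins, and the coiled coil pairs them into dimers. The C-terminal part differs between classes: a PRY-SPRY domain that recognises viral or host proteins, a PHD finger with a bromodomain that reads histones, NHL repeats, and others. Many PRY-SPRY members are known to be induced by interferon and to act in antiviral defence, while the other classes serve transcription, the cytoskeleton, the centrosome and vesicle traffic.

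The samples carried the RNA of their labelled segment. Summed over 6 principal cell markers, the level lay between 14450 and 16360 TPM in Vehicle and between 8432 and 11870 TPM in LPS, and over 5 intercalated cell markers between 5231 and 5821 TPM and between 3854 and 5286 TPM. Of these markers Aqp2, Aqp3, Avpr2, Hsd11b2 and 1 intercalated cell gene were called lower, and their part in the Trim results was not tested. Markers of other segments varied between samples. Those of the distal convoluted and connecting tubule, mainly Calb1, summed to 4975 TPM in Vehicle 1, against 28.2 to 215.5 TPM in the other samples. Proximal tubule markers summed to 2.73 to 75.8 TPM in Vehicle and 2.29 to 68.0 TPM in LPS. Those of the thick ascending limb summed to 109.5 to 151.7 and 91.05 to 234.1 TPM, highest in LPS 2, where Umod was at 127 TPM. The part of these segments in the Trim results was not tested either. Per library, 11399 to 12704 genes reached 1 TPM. LPS 1 stood between the groups, with a mean correlation of 0.92 to Vehicle libraries across genes, against 0.86 for LPS 2 and 0.87 for LPS 3. Among Vehicle libraries, 2 (Vehicle 1 library 1 and Vehicle 3 library 3) were most similar to a library of another sample. Calls of Trim genes that change without LPS 1 or without these libraries are given.

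After LPS, 5 members with a PRY-SPRY domain rose, with ratios of the means from 1.61 to 15.6, and 10 members of several classes fell. Of the 30 tested Trim genes 17 have a PRY-SPRY domain, and 3 of the 10 that fell are among them. The highest ratio was that of Trim15, whose Vehicle mean was only 0.228 TPM, and the next was 12.2 for Trim25. A test by limma of log2(TPM + 1) over the 12393 genes whose mean over all libraries reached 1 TPM, paired by sample number, called a gene at a Benjamini-Hochberg adjusted p under 0.05. Of 30 tested Trim genes, 5 were called higher, namely Trim25, Trim21, Trim5, Trim15 and Trim47. The share of all tested genes called higher was 7.17%. Another 10 were called lower, namely Trim59, Trim32, Trim65, Trim3, Trim2, Trim23, Trim68, Trim44, Trim35 and Trim37, against 22.2% of all tested genes. A change of at least 2-fold was called higher in 4 Trim genes and lower in 6, against 5.47% and 10.2% of all tested genes. Every LPS sample was above every Vehicle sample in 5 of the 30 and below in 14, against 9.82% and 47.1% of all tested genes. The median log2 change of the 30 was -0.34, close to the -0.38 of all tested genes. Trim15 passed the filter only through its level in LPS, and Trim62 only through Vehicle.

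With other scalings the median change of all genes moved upwards, and most falls were no longer called. The cause of the lost calls was not tested. Median-ratio scaling, which sets libraries to a common median gene, moved the median of all genes to -0.02; 4 Trim genes were higher (Trim15 was lost) and 1 was lower, as were 6.62% and 3.71% of all genes. With quantile normalization 5 were higher, of which 4 were among those above, with Trim15 lost and Trim34 gained, and 2 were lower, against 6.53% and 4.67%. Without sample number 2 the counts were 3 and 0 (5 and 8 at an unadjusted p under 0.05 by limma), against 3.38% and 2.39% of all genes. Of the 5 genes called higher, Trim15 and Trim47 were lost there (limma adjusted p = 0.114 and 0.166). Without sample number 3 the counts were 0 and 0 (5 and 7 unadjusted), as over all genes. A fit that left out LPS 1 and also dropped the pairing gave 6 and 14, against 10.9% and 46.4% of all genes: Trim26 was then higher, Trim8, Trim11, Trim28, Trim33 and Trim62 lower, and Trim44 no longer called. Without the 2 Vehicle libraries they were 5 and 7, against 5.86% and 12.9% of all genes, with Trim44, Trim68 and Trim3 no longer called (limma adjusted p = 0.0717, 0.0548 and 0.0540). In bulk RNA, fewer cells of a type and less RNA per cell cannot be told apart.

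**Figure D1:**
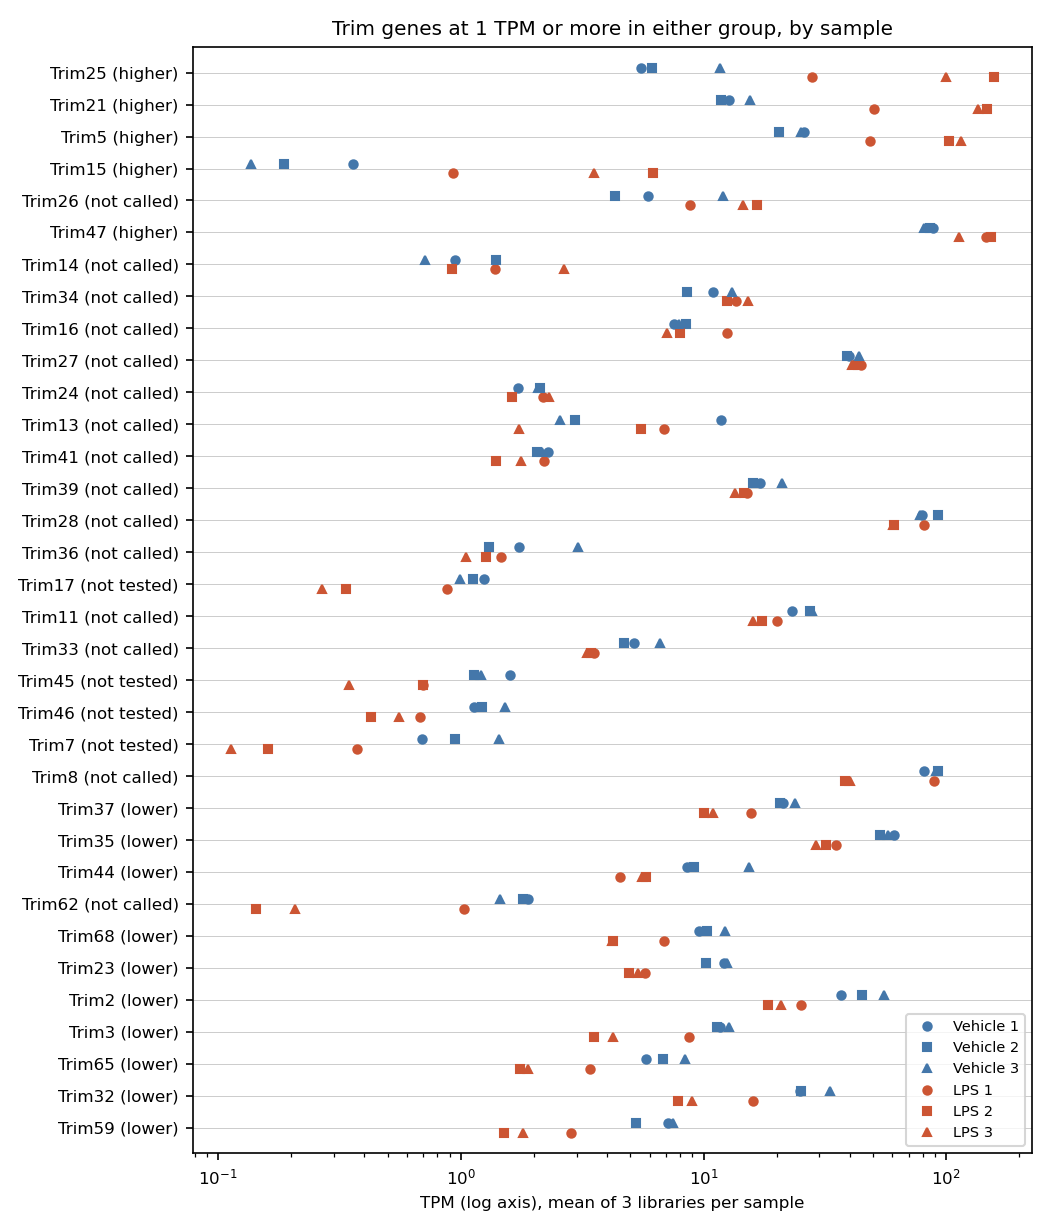
Level of each of the 34 Trim genes at 1 TPM or more in either group, as TPM on a log axis. Points are the 3 Vehicle samples (blue) and 3 LPS samples (red), each the mean of 3 libraries, and the call over all genes stands beside the symbol. Trim25, Trim21, Trim5, Trim15 and Trim47 show every LPS point to the right of every Vehicle point, and LPS 1 lies nearest to Vehicle in the first 4 of them.

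Trim25 (ENSRNOG00000002341), the ligase that attaches ubiquitin to the RNA sensor RIG-I and also transfers ISG15, had the largest log2 change. It stood at 5.53, 6.16 and 11.6 TPM in Vehicle 1, 2 and 3 and at 28.0, 157 and 99.8 TPM in LPS 1, 2 and 3. The groups did not overlap, and LPS 1 was the lowest LPS sample by a wide margin. The log2 change was 3.27 (SE 0.373, limma adjusted p = 0.00299), and the ratio of the means was 12.2. Single libraries ran from 2.76 to 14.5 TPM in Vehicle and from 19.1 to 209.9 TPM in LPS, so the libraries did not overlap either.

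Trim21 (ENSRNOG00000018517), the cytosolic antibody receptor that sends antibody-coated virus to the proteasome, followed. It stood at 12.7, 11.8 and 15.5 TPM in the Vehicle samples and at 50.5, 147 and 136 TPM in the LPS samples. All LPS samples were above all Vehicle samples, LPS 1 again the lowest. It rose by 2.82 (log2, SE 0.307, limma adjusted p = 0.00256), an 8.33-fold ratio of means. By level it ranked 12 among the Trim genes in Vehicle and 2 in LPS.

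Trim5 (ENSRNOG00000017191) encodes a cytosolic protein known for binding retroviral capsids. Its sample values were 25.9, 20.4 and 25.1 TPM in Vehicle and 48.3, 102.7 and 115 TPM in LPS. The LPS samples were all higher, with LPS 1 again the lowest of them. The log2 change was 1.77 (SE 0.291, limma adjusted p = 0.0106) and the ratio of means 3.73. Rodent Trim5, Trim30 and their copies are a family of close paralogs among which reads are shared by estimate, so its level is uncertain to that extent.

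Trim15 (ENSRNOG00000031689), known as a component of focal adhesions, was below 1 TPM in every Vehicle library. It was listed at 0.360, 0.187 and 0.137 TPM in the Vehicle samples, and at 0.930, 6.20 and 3.55 TPM in LPS. LPS 1 was close to Vehicle and its lowest library, at 0.52 TPM, lay below the highest Vehicle library, at 0.63 TPM. The log2(TPM + 1) change of 1.69 (SE 0.424, limma adjusted p = 0.0302) understates a 15.6-fold ratio of means at these low levels. Under median-ratio scaling it was not called, at 1.88 with adjusted p = 0.0722, nor with quantile normalization, at 1.88 with adjusted p = 0.0683.

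Trim47 (ENSRNOG00000008215), a PRY-SPRY ligase, was already the second most abundant member in Vehicle and became the first in LPS. It stood at 88.5, 85.7 and 81.1 TPM in the Vehicle samples, and at 146, 153 and 113 TPM in LPS. The groups were separate, and here LPS 3, not LPS 1, was the lowest LPS sample. The change was small but even, 0.68 (log2, SE 0.158, limma adjusted p = 0.0260), with 0.72, 0.83 and 0.48 in the 3 pairs. Trim47 differed from the other 4 genes in this evenness: their change in pair 1 was below that in pairs 2 and 3, as for Trim25 with 2.15 against 4.47 and 3.00.

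**Figure D2:**
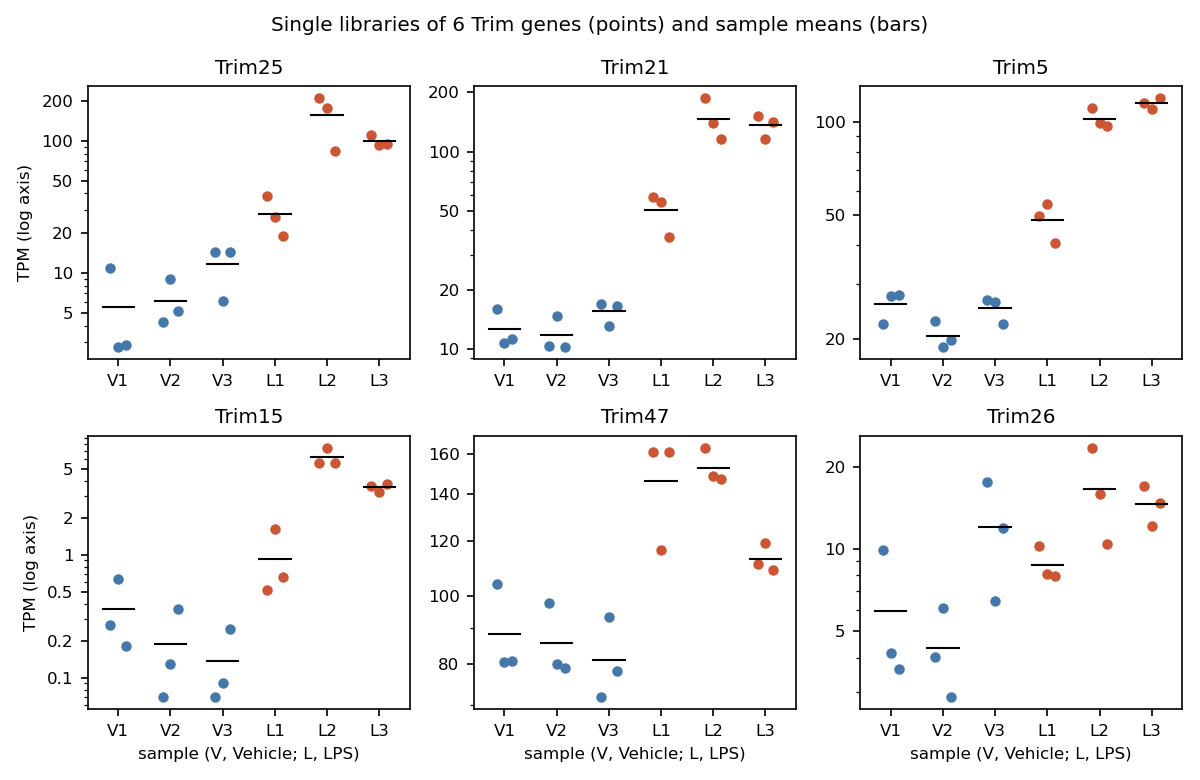
Single libraries (points) and sample means (bars) in TPM on log axes for the 5 Trim genes called higher and for Trim26, which was not called. V1 to V3 are Vehicle samples and L1 to L3 LPS samples. The libraries of Trim25, Trim21, Trim5 and Trim47 do not overlap between groups, whereas those of Trim15 and Trim26 do.

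Promoter sequence was examined for the 34 genes because several rose together. RefSeq windows on build GRCr8, 250 bases before to 50 after a transcript start, were matched by symbol for 28 of the 34. The core of the interferon-stimulated response element, which is GAAA, then 2 bases of any kind, then GAAA on either strand, occurred in 3 of the 28 windows, those of Trim21, Trim26 and Trim34, or 10.7%, against 3.92% of 33465 windows of all genes. A kappaB core, GGG, then 2 bases of any kind, then TTTCC on either strand, occurred in 0 of the 28 and in 1.53% of all windows. The stretches below show the 3 matches, in capitals on the strand of the gene, 30 bases each.
Trim21, chr1:166399372-166399401, minus strand: tacctctgagagGAAACTGAAAGTGAAAtt
Trim26, chr20:1736487-1736516, minus strand: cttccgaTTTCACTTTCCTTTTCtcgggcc
Trim34, chr1:168119045-168119074, plus strand: gtctggagTTTCAGTTTCTTTTTCtcggca

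Each of the 3 is a pair of overlapping matches that spans 16 bases. In Trim21 the run reads GAAACTGAAAGTGAAA on the gene's own strand and ends 3 bases before the start, although the gene's RefSeq span begins further upstream at another transcript. In Trim26 it reads GAAAAGGAAAGTGAAA on the opposite strand, between 198 and 183 bases before the start. In Trim34 it reads GAAAAAGAAACTGAAA on the opposite strand, at bases 11 to 26 after the start. Of these genes Trim21 was called higher, whereas Trim26 and Trim34 were not.

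Of the 5 genes called higher, 4 have a window, and Trim21 alone among them holds a match. Trim25, Trim5 and Trim47 have none, and Trim15 has no window in the table. The last 100 bases before the start of Trim25 and Trim5 are shown to let the letters be compared; they hold neither core, so nothing is in capitals.
Trim25, chr10:74309924-74310023, plus strand: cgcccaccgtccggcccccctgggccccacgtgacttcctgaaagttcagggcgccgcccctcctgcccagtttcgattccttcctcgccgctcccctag
Trim5, chr1:168149264-168149363, minus strand: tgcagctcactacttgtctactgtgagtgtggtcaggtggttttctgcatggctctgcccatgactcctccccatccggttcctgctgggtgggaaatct
A match is a description of letters, and the absence of one says only that these letters are not in this window.

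Of 17 tested PRY-SPRY members, 5 were called higher, 3 lower and 9 not called. The shares of all tested genes called higher and lower were 7.17% and 22.2%. Trim26 stood at 5.90, 4.33 and 12.0 TPM in Vehicle and 8.77, 16.6 and 14.6 TPM in LPS, with overlapping groups because of Vehicle 3. Its log2 change of 0.88 (SE 0.294, limma adjusted p = 0.0596) missed the call, which it passed without LPS 1 and the pairing (1.13, adjusted p = 0.0428). Trim15 and Trim26 are neighbours whose spans overlap in the GRCr8 annotation, so reads from the shared stretch could be split between them.

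Trim34, a close relative of Trim5, was at 10.9 ± 2.28 TPM in Vehicle against 13.8 ± 1.38 TPM in LPS (n = 3, SD), with a log2 change of 0.34 (95% interval -0.12 to 0.80). It was called with quantile normalization, at 0.71 with limma adjusted p = 0.0465. Trim14, an adaptor without a RING that binds the mitochondrial antiviral protein MAVS, was at 1.02 ± 0.343 and 1.66 ± 0.900 TPM and was higher in 2 of 3 pairs. Trim27, a ligase first found as part of the RFP-RET fusion, was nearly level at 40.7 ± 2.48 and 43.0 ± 1.93 TPM, and its interval of -0.33 to 0.48 covers 0. Trim16, a member without a RING that acts in the clearance of damaged lysosomes, was at 7.997 ± 0.448 and 9.19 ± 2.87 TPM, with LPS 1 alone above the Vehicle range at 12.4 TPM (log2 change 0.14). Trim41 was at 2.17 ± 0.119 and 1.79 ± 0.405 TPM, Trim39 at 18.1 ± 2.699 and 14.4 ± 0.836 TPM and Trim11 at 26.1 ± 2.64 and 17.8 ± 2.07 TPM. Their log2 changes, with that of Trim62, were -0.16, -0.31, -0.53 and -0.92. In Trim39, Trim11 and Trim62 every LPS sample was below every Vehicle sample, as in 47.1% of all tested genes. With the pairing dropped, Trim11 and Trim62 were called with LPS 1 kept (limma adjusted p = 0.0366 and 0.0429) and with it left out, at -0.62 and -1.18 (limma adjusted p = 0.00896 and 0.00461).

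The PRY-SPRY genes that fell were Trim35, Trim65 and Trim68. Trim35 (ENSRNOG00000009449) was the fourth most abundant Trim gene in Vehicle, at 61.0, 53.6 and 57.9 TPM, and was at 35.0, 31.9 and 29.2 TPM in LPS. It fell by 0.83 (log2) with an SE of 0.168 (limma adjusted p = 0.0187), with all 3 pairs within 0.73 to 0.96, and was still lower with quantile normalization (-0.60, adjusted p = 0.0449) but not with median-ratio scaling (-0.43, adjusted p = 0.0854).

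Trim65 (ENSRNOG00000024145), known to ubiquitinate the RNA sensor MDA5, stood at 5.79, 6.81 and 8.37 TPM in Vehicle and 3.42, 1.75 and 1.89 TPM in LPS. It fell by 1.26 (log2) with an SE of 0.280 (limma adjusted p = 0.0234). LPS 1 was the highest LPS sample and still below every Vehicle sample. Trim68 (ENSRNOG00000047229), a coactivator of the androgen receptor, was at 9.60, 10.4 and 12.3 TPM in Vehicle and 6.88, 4.24 and 4.18 TPM in LPS. It fell by 0.96 on the log2 scale (limma adjusted p = 0.0323). Neither was called under median-ratio scaling, at -0.95 and -0.61 with adjusted p = 0.0642 and 0.0873.

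Of the members with NHL repeats, a propeller fold used for binding RNA or proteins, the 3 tested genes were called lower. Of all tested genes 22.2% were called lower, and with quantile normalization 0 of these 3 were. The fourth member, Trim71, was below 1 TPM. Trim32 (ENSRNOG00000010303), the ligase mutated in limb-girdle muscular dystrophy, had the largest of these changes. It stood at 25.0, 25.3 and 33.2 TPM in Vehicle and 16.0, 7.81 and 9.01 TPM in LPS, and fell by 1.32 (log2) with an SE of 0.262 (limma adjusted p = 0.0178). The LPS samples were all lower, and LPS 1 lost least.

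Trim2 (ENSRNOG00000010124), a neurofilament ligase in neurons, was the most abundant of the class, with 37.0, 45.2 and 55.4 TPM in Vehicle and 25.2, 18.5 and 21.0 TPM in LPS. It fell by 1.05 (log2) with an SE of 0.218 (limma adjusted p = 0.0200). Trim3 (ENSRNOG00000018356), its closest relative, was at 11.7, 11.4 and 12.8 TPM in Vehicle and 8.72, 3.54 and 4.23 TPM in LPS, and fell by 1.07 (log2) with an SE of 0.267 (limma adjusted p = 0.0299). Both show separate groups, with LPS 1 nearest to Vehicle. Under median-ratio scaling the 3 genes were at -0.94, -0.65 and -0.72 for Trim32, Trim2 and Trim3 and none was called, with adjusted p = 0.0558, 0.0612 and 0.0886.

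**Figure D3:**
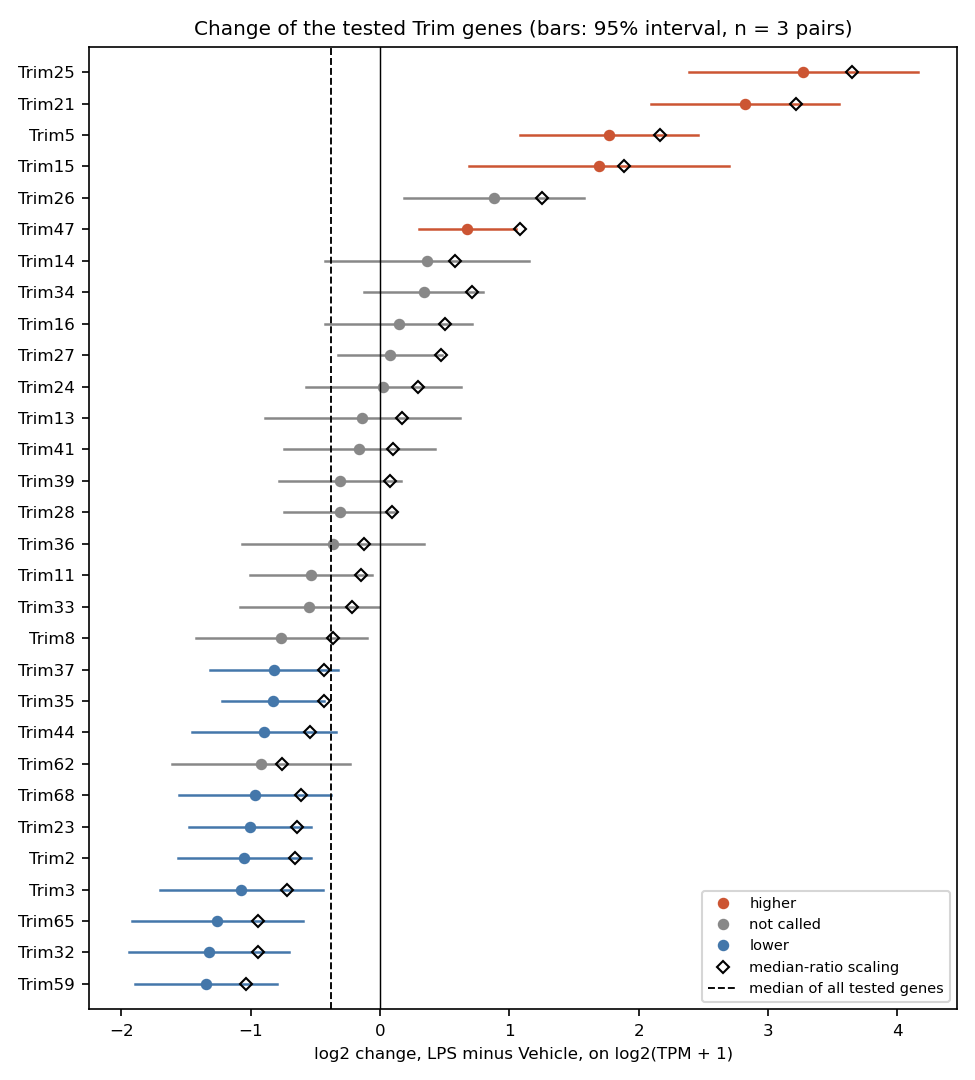
Log2 change (LPS minus Vehicle, on log2(TPM + 1)) of the 30 tested Trim genes, with 95% intervals from limma. Filled points are coloured by call, open diamonds give the change under median-ratio scaling, and the dashed line is the median of all tested genes at -0.38. The diamonds lie to the right of the points throughout, so the falls move towards 0 and the rises away from it.

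The transmembrane class has 2 members that sit in the endoplasmic reticulum. Trim59 (ENSRNOG00000010515) fell the most of the tested Trim genes on log2(TPM + 1) and was the single one called lower under both scalings. By ratio of means Trim62, at lower levels, fell more, 3.74-fold against 3.24-fold. It stood at 7.15, 5.27 and 7.46 TPM in Vehicle and 2.84, 1.5 and 1.80 TPM in LPS. The change was -1.34 (SE 0.232, limma adjusted p = 0.0123), or -1.03 with median-ratio scaling (adjusted p = 0.0336) and -0.96 with quantile normalization (adjusted p = 0.0330).

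Trim13, its relative in autophagy at the endoplasmic reticulum, differed between samples more than between groups. It stood at 11.8, 2.95 and 2.57 TPM in the Vehicle samples, and at 6.88, 5.54 and 1.73 TPM in LPS. Vehicle 1 was high in each of its libraries, the lowest of which was 10.6 TPM, and sample number 3 was the lowest in both groups. Markers of the distal convoluted and connecting tubule summed to 4975 TPM in Vehicle 1, against 28.2 to 215.5 TPM in the other 5 samples, nearly all of it Calb1 at 4943 TPM, and their part in the level of Trim13 was not tested. Its log2 change was -0.13 with a 95% interval of -0.89 to 0.62.

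Single members of other classes also fell. Trim37 (ENSRNOG00000006248), a ligase of the centrosome and peroxisome whose loss causes Mulibrey nanism, stood at 21.3, 20.7 and 23.7 TPM in Vehicle and 15.7, 10.04 and 10.97 TPM in LPS, a log2 change of -0.82 (limma adjusted p = 0.0316). Trim23 (ENSRNOG00000012354), which joins a RING to an ARF-type GTPase domain and activates the kinase TBK1, was at 12.2, 10.2 and 12.5 TPM in Vehicle and 5.72, 4.92 and 5.36 TPM in LPS, a log2 change of -1.003 (limma adjusted p = 0.0178). In Trim23 the 3 pairs moved alike, by -0.97, -0.92 and -1.09.

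Trim44 (ENSRNOG00000005191), which has a ubiquitin-protease type zinc finger in place of the RING, was at 8.57, 9.18 and 15.5 TPM in Vehicle and 4.52, 5.79 and 5.55 TPM in LPS. It had a log2 change of -0.90 (limma adjusted p = 0.0336). Its libraries within a sample spread by an SD of 0.459 (log2), the widest among the called genes after Trim25 at 0.617. The call was lost without LPS 1 and the pairing (-0.79, adjusted p = 0.0553) and without the 2 Vehicle libraries (adjusted p = 0.0717). Under median-ratio scaling Trim37, Trim23 and Trim44 were at -0.43, -0.64 and -0.54 and were not called. The spans of Trim37 and Ppm1e, of Trim32 and Astn2 and of Trim39 and Rpp21 overlap in GRCr8, and no source gives the strand setting of the counting, so reads of these pairs may not be told apart.

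The chromatin members with a PHD finger and bromodomain were not called by limma, with 1 of 3 tested at an unadjusted p under 0.05. Trim28, known as KAP1, is the corepressor that KRAB zinc finger proteins bring to retroelements, and it was the third most abundant Trim gene in Vehicle. It was at 83.4 ± 7.95 TPM in Vehicle against 67.5 ± 11.9 TPM in LPS (n = 3, SD), with overlapping groups because LPS 1 was at 81.3 TPM. Its log2 change was -0.31 (95% interval -0.74 to 0.13) and took the other sign, 0.09, under median-ratio scaling. Trim33, the Smad4 ligase TIF1-gamma, was at 5.50 ± 1.02 and 3.43 ± 0.107 TPM with a log2 change of -0.54 (limma adjusted p = 0.102). Trim24, the nuclear receptor cofactor TIF1-alpha, was at 1.97 ± 0.222 and 2.03 ± 0.360 TPM, a change of 0.03. Without LPS 1 and the pairing, Trim28 was called at -0.45 (limma adjusted p = 0.0153) and Trim33 at -0.56 (limma adjusted p = 0.0381).

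Trim8, a ligase of the TNF and interferon pathways that binds SOCS1, was the most abundant Trim gene in Vehicle. It stood at 81.2, 92.5 and 90.8 TPM in the Vehicle samples, and at 88.8, 38.2 and 40.01 TPM in LPS. LPS 1 lay within the Vehicle range while LPS 2 and LPS 3 were below every Vehicle sample, and the log2 change of -0.76 (SE 0.280, limma adjusted p = 0.0755) was not called. Without LPS 1 and the pairing it was called, at -1.14 with limma adjusted p = 0.000612. In Vehicle, Trim8, Trim47 and Trim28 had means of 88.2, 85.1 and 83.4 TPM with SDs of 6.07, 3.73 and 7.95 TPM, so their order lies within the spread of the samples.

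The least abundant members reported were near the 1 TPM limit. Trim36, a microtubule-bound member, was at 2.03 ± 0.903 and 1.26 ± 0.208 TPM (SD, n = 3). Trim62 had means of 1.72 and 0.459 TPM, with LPS 1 at 1.03 TPM and LPS 2 and 3 at 0.143 and 0.207 TPM, and a limma adjusted p of 0.0525. Trim17, Trim45, Trim46 and Trim7 were below the filter over all libraries and passed 1 TPM only in Vehicle, at means from 1.02 to 1.31 TPM, against 0.216 to 0.581 TPM in LPS. With a filter of 1 TPM in either group their log2 changes were -0.52, -0.55, -0.56 and -0.71, with limma adjusted p from 0.0920 to 0.143, and of all genes tested there 6.95% were higher and 21.0% lower, against 5 and 11 of 34 Trim genes. In that fit Trim62 was called, with adjusted p = 0.0463. Just outside the limit, Trim43a, Trim6, Trim30c and Trim80 had their higher mean between 0.467 and 0.489 TPM.

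The make-up of the summed Trim RNA differed between the groups. The 55 genes together made up 629.6, 633.5 and 694.5 TPM in Vehicle and 705.6, 885.6 and 785.5 TPM in LPS. The 5 genes called higher held 19.98% ± 0.993 of that sum in Vehicle and 54.1% ± 13.4 in LPS (SD, n = 3), and the 10 called lower 32.4% ± 1.73 and 13.2% ± 3.88. These shares follow from the calls and are given as a description.

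**Figure D4:**
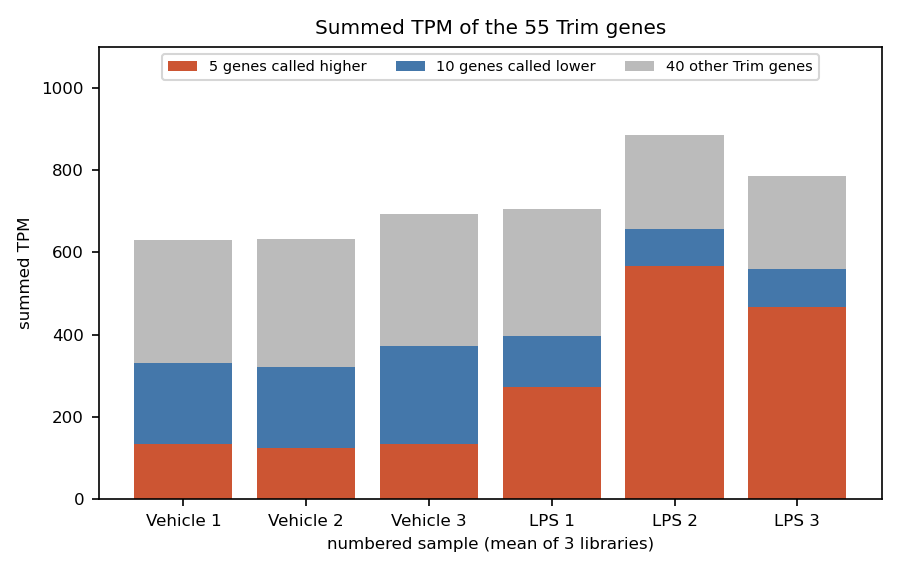
Summed TPM of the 55 Trim genes in each numbered sample, split into the 5 genes called higher, the 10 called lower and the 40 others. The part in genes called higher is 124 to 134 TPM in the Vehicle samples and 274, 566 and 468 TPM in LPS 1, 2 and 3.

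Blood cells also express Trim21, Trim25 and Trim5, so their markers are given beside these results. The summed level of 12 macrophage and monocyte markers lay between 113.5 and 254.5 TPM in Vehicle and between 194 and 448 TPM in LPS, and of 10 tested C1qa, Adgre1, Fcer1g and Tyrobp rose and Csf1r fell. The highest sum was in LPS 1, of which Lyz2 made up 253.5 TPM. Single markers differed in their order: Cd68 was at 4.66, 6.12 and 7.49 TPM in LPS 1, 2 and 3, and Adgre1 at 4.91, 6.08 and 3.61 TPM. The sum of 6 neutrophil markers was between 0.0933 and 0.390 TPM in Vehicle and 5.84, 2.11 and 78.2 TPM in LPS 1, 2 and 3. S100a8 and S100a9 were higher by limma, but both passed the filter only through LPS, mainly LPS 3 at 30.8 and 45.3 TPM. Elane was listed at 0 in all samples but LPS 3. T and B lymphocyte markers were at 6.30 to 10.4 TPM and 6.80 to 7.46 TPM, with 0 of 2 tested called by limma (0 unadjusted). Endothelial markers summed to 15.1 to 78.9 TPM in Vehicle and 19.8 to 58.5 TPM in LPS. Of 5 tested, Flt1 alone was called, from 0.543 ± 0.345 to 2.62 ± 0.774 TPM (SD, n = 3), and it passed the filter only through LPS. Tek and Emcn were lower in all 3 pairs, at log2 changes of -0.86 and -0.60, and Cdh5 and Plvap were at 0.14 and 0.02. Of 3 tested markers of the distal convoluted and connecting tubule Calb1 and Trpm6 fell. The part of these cells in the Trim results was not tested.

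Relatives and partners of the TRIM proteins were read from a list of 67 genes, of which 58 were tested. The list was chosen with earlier results of these data known, so its counts are a description. Several TRIM ligases act on the RNA-sensing pathway. The list of 14 genes of RNA sensing and its kinases also holds the DNA-sensing genes Cgas and Sting1. Of the 14, 7 were higher, Cgas among them, and 0 lower by limma (1 lower unadjusted), against 7.17% and 22.2% of all tested genes. Over all partner lists 12 of 58 were higher and 8 lower, beside the same 7.17% and 22.2% of all tested genes. With median-ratio scaling 12 and 3 were, against 6.62% and 3.71% of all genes. Without sample number 2 the counts were 8 and 2, against 3.38% and 2.39%. Without sample number 3 they were 0 and 0, as over all genes (10 and 4 partner genes unadjusted by limma). The median log2 change of the 58 was -0.18.

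Ddx58, which encodes RIG-I, the sensor on which Trim25 acts, stood at 35.5, 34.5 and 40.2 TPM in Vehicle and 151, 355 and 333 TPM in LPS. It rose by 2.81 (log2, SE 0.252, limma adjusted p = 0.00132). Ifih1, the gene of the MDA5 sensor that Trim65 ubiquitinates, rose by 4.04, from 4.48 ± 2.33 to 92.7 ± 41.5 TPM (SD, n = 3). Ifih1 thus moved opposite to Trim65. Zc3hav1, whose zinc finger antiviral protein uses Trim25 as a cofactor, rose by 2.51 and Dhx58 by 4.91. The DNA sensor gene Cgas rose by 2.88, the interferon factor gene Irf7 by 6.36 and the kinase gene Tbk1 by 0.82. Tbk1 was not called under either scaling, at 1.22 and 1.05, whereas the kinase gene Ikbkb, at 0.61 with limma adjusted p = 0.0580, was called higher under both, at 1.00 and 0.89. Mavs, the adaptor downstream of the sensors, was at 58.4, 68.6 and 62.6 TPM in Vehicle and 55.4, 28.2 and 33.6 TPM in LPS and was not called. Without LPS 1 and the pairing Mavs was called lower, at -1.01 with limma adjusted p = 0.00166.

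Of the TRIM relatives that carry another symbol, Pml, the founder of nuclear bodies also known as TRIM19, stood at 11.2, 13.0 and 16.5 TPM in Vehicle and 46.0, 72.6 and 68.4 TPM in LPS. It rose by 2.11 (log2, SE 0.185, limma adjusted p = 0.00119). Bspry, a B-box and SPRY protein, rose by 0.72, from 76.7 ± 1.45 to 129 ± 28.7 TPM (SD, n = 3). The microtubule members Mid1 and Mid2 were at 6.65 and 5.38 TPM in Vehicle and 4.24 and 4.41 TPM in LPS and were not called. Every LPS sample of Mid1 was below every Vehicle sample, as in 47.1% of all tested genes. Without LPS 1 and the pairing Mid1 was called lower, at -0.59 with limma adjusted p = 0.0409. Of all partner genes 16 were higher and 18 lower in that fit, in which 10.9% and 46.4% of all genes were called.

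Genes of the TAK1 kinase complex and of lysine 63 ubiquitin chains had 1 of 14 higher and 2 lower, where 7.17% and 22.2% of all tested genes were called. The E2 gene Ube2e3 rose by 0.70, and the TAK1 binding gene Tab1 and the E2 gene Ube2d1 fell by 1.08 and 1.06 on the log2 scale. Ube2n, the E2 for lysine 63 chains, was at 117 ± 9.26 and 96.2 ± 6.93 TPM (SD, n = 3). Of 8 genes listed for silencing with Trim28, 2 were higher, Sp100 by 2.90 and Morc3 by 1.09. Another 2 were lower, beside the same shares of all genes. Sp100 and Morc3 are nuclear body genes, Sp100 with Pml. The heterochromatin gene Cbx3 fell by 1.39 and the histone methyltransferase gene Setdb1 by 0.69 on the log2 scale.

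Nuclear receptor and Smad partners had 2 of 7 lower, near the 22.2% of all tested genes, namely the receptor genes Rxra and Nr3c2, with log2 changes of -1.66 and -1.65. Both were also lower under both scalings, as was Cbx3. Of 10 autophagy partners 2 were lower, also near that share: Becn1 and Atg16l1 at -0.68 and -0.71, and 0 were higher by limma (0 higher unadjusted there). Setdb1, Ube2d1, Becn1 and Atg16l1 were not called under either scaling, and Tab1 was called with quantile normalization alone.

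**Figure D5:**
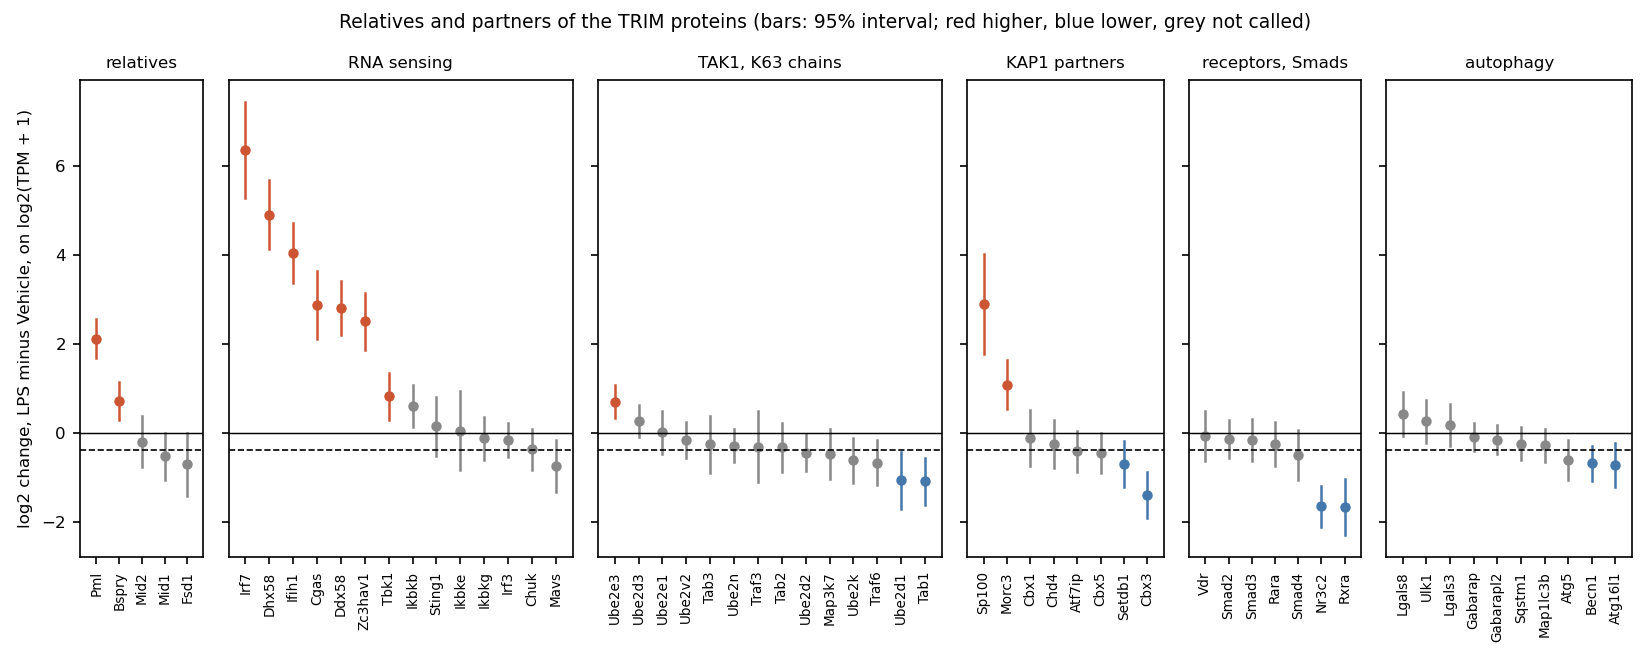
Log2 change (LPS minus Vehicle, on log2(TPM + 1)) with 95% limma intervals for 58 tested relatives and partners of the TRIM proteins, by list. Red points were called higher, blue lower, and the dashed line is the median of all tested genes at -0.38. The RNA-sensing list holds the 3 largest rises, Irf7, Dhx58 and Ifih1.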

How the data were processed

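The authors deposited 1 table of TPM. The submitters' processing notes name STAR 2.7.9a, RSEM 1.3.3 and build Rnor_6.0; annotation and filters: not given in the sources used here. RSEM splits reads between similar transcripts by estimate. TPM keeps no read number, so depth is unknown. N in a column name was read as normal saline and L as LPS, and 0 columns were of other samples.

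Libraries were averaged per numbered sample as log2(TPM + 1). Genes whose mean reached 1 TPM were tested with limma 3.58.1 in R 4.3.3 (variance trend, two-sided). The design text calls the samples paired, so sample number was a block, although same-numbered samples hardly deviated together (r = 0.062, -0.018 and 0.069 across genes). No label ties samples to separate animals: the p-values reflect only the spread among these samples, which may be technical. The code was tested on simulated data. Named are all Trim genes at 1 TPM or more and called list genes; other list genes were named after their values were seen. Members and lists were chosen with earlier results of these data known. Rnf135, Ube2v1 and Pecam1 were not analysed here. Sequences, gene order and overlaps come from RefSeq (GRCr8), not the build of the files. Alternatives were other summaries, pseudocounts, filters, scalings, variance models and samples left out.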

Additional observations from a re-analysis of the deposited data

How the results depend on the processing

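Counts of genes called higher and lower by limma changed most with the summary of libraries, the filter and the samples. With the median of the libraries 0 and 0 of all genes, Trim genes and partner genes were called (5 and 13 Trim genes at an unadjusted p under 0.05). With no filter these were 18 and 2 of all genes, and 0 and 0 Trim genes (6 and 17 unadjusted) and partner genes. Of all genes 889 and 2757 were called; the lower count was 460 with median-ratio scaling, 579 with quantile normalization, 5295 with all 18 libraries and an estimated correlation, and 1602 without the 2 Vehicle libraries. The lower Trim count was 1 and 2 under these scalings, and the lower partner count 3 and 4, and 17 with all 18 libraries. Leaving out each sample number or LPS 1 gave 0 to 1357 genes higher and 0 to 5750 lower, 0 to 6 Trim genes higher and 0 to 14 lower, and 0 to 16 partner genes higher and 0 to 18 lower. The cause of these shifts was not tested. LPS 1 (in a fit with no pairing) and the 2 Vehicle libraries were left out after the data were seen.

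With no replicate block 5 Trim genes were higher and 12 lower, the 2 added being Trim11 (limma adjusted p = 0.0366) and Trim62 (limma adjusted p = 0.0429), and no other Trim call changed. Each of the 15 called Trim genes kept its sign in every alternative in which it was tested. Genes not called that changed sign were Trim13 (0.17 with median-ratio scaling, 0.24 with quantile normalization), Trim41 (0.10 and 0.18), Trim39 (0.076 and 0.043) and Trim28 (0.093, median-ratio scaling). Trim24 was at -0.061 with the median of the libraries, -0.0091 without LPS 1 and -0.053 without the 2 Vehicle libraries, and Trim16 at -0.078 without LPS 1. With a sample number left out, Trim14 ranged from -0.00098 to 0.69, Trim16 from -0.11 to 0.30, Trim24 from -0.070 to 0.17 and Trim13 from -0.57 to 0.15. Depth is unknown, so values near 1 TPM carry no counting interval.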

Other observations

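Some Trim genes lie side by side in the genome. By gene order in GRCr8, with 0 protein-coding genes between them, Trim47 and Trim65 are neighbours, and Trim47 rose by 0.68 while Trim65 fell by 1.26 on the log2 scale. Trim6, Trim34, Trim5 and Trim30c follow each other in that order. Of these Trim5 rose and Trim34 was not called. Trim6 stood at 0.484 and 0.301 TPM and Trim30c at 0.106 and 0.482 TPM, both below the filter. In Trim30c every LPS sample was above every Vehicle sample, as in 9.82% of all tested genes. In the run Trim31, Trim40, Trim10, Trim15 and Trim26, Trim31 and Trim10 were below 0.06 TPM in both groups and Trim40 was listed at 0 in all libraries.

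Of the 21 Trim genes below 1 TPM in both groups, Trim40 and Trim54 were listed at 0 in all 18 libraries. The muscle genes Trim63, Trim55 and Trim72 were at most at 0.0833 TPM on average.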
